A study of Homo sapiens with 6 samples.

Results

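The genes described here are those of MHC class II antigen presentation in HCT116 cells, an established human colorectal carcinoma line: the class II chains, the invariant chain CD74 and the transactivator CIITA. The 10 genes were chosen by symbol and found in the expression table by Ensembl identifier. They and the gene lists below were chosen with earlier results of these data known. Of the 10 genes, 8 had values in the table, out of 16715 distinct identifiers, and the expression of HLA-DMB and HLA-DOB was not analysed here. RNA-seq was made from 3 libraries of HCT116 cells treated with 5aza and 3 libraries of control HCT116 cells. The 5aza cells received 5 µM for 48 hours and were then kept in fresh medium for 48 hours. The titles name 5aza where the sample descriptions carry DAC, and the labels do not say whether these are the same compound. The control cells are labelled only as control, with no vehicle named. Both groups were of the same line at passage 7 to 10, with no added genetic change or cytokine in the labels. Nothing says that the libraries came from separate cultures, so p-values measure the spread between these libraries, which may be technical.

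Class II molecules are pairs of an alpha and a beta chain that carry peptides from endosomes to the cell surface, where CD4+ T cells read them. They are made mainly by B cells, dendritic cells and macrophages, and in epithelial cells chiefly after interferon gamma, which acts through JAK kinases and IRF1 to switch on CIITA. CIITA does not bind DNA itself but joins a complex of RFX, CREB and NF-Y proteins on the X and Y boxes of class II promoters, and DNA methylation of its own promoter is known in tumour lines. The invariant chain CD74 blocks the peptide groove until proteases remove it in endosomes, and HLA-DM then exchanges its last fragment for a peptide. Azanucleosides such as 5aza capture DNA methyltransferases on DNA, and dividing cells then copy less methylation to the new strand.

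The promoters show what the members share in sequence. Of the 10 genes, 8 had a promoter in the RefSeq table (GRCh38.p14), taken as 250 bases before to 50 bases after the start, and CIITA and HLA-DRA had none there. These 8 differ from the 8 with expression values, since they include HLA-DMB and HLA-DOB. The letters CCAAT, the core of the Y box, were found on either strand in 7 of these 8 genes and in 34.6% of all 35116 promoters. The letters TGATGA, which lie in the X box of several class II genes and were chosen after the sequences were read, were found on either strand in 6 of the 8 genes and in 10.9% of all promoters. Starts of both within 40 bases of each other were found for CD74, HLA-DRB1, HLA-DMA and HLA-DOB, which is 4 of the 8 genes, and in 1.42% of all promoters. In the promoters shown the motifs do not overlap each other, and a match is a description of these letters, not evidence of binding. The promoters of CD74 and HLA-DRB1, the members that rose, and of HLA-DMA, which did not pass the test, are shown 5′ to 3′ with both motifs in capitals. They lie at chr5:150412861-150413160, chr6:32589799-32590098 and chr6:32953048-32953347, all on the minus strand. The HLA-DMA promoter lies inside the annotated gene used for its values (32948613 to 32969094), so its RefSeq start differs from the start of that gene.
CD74: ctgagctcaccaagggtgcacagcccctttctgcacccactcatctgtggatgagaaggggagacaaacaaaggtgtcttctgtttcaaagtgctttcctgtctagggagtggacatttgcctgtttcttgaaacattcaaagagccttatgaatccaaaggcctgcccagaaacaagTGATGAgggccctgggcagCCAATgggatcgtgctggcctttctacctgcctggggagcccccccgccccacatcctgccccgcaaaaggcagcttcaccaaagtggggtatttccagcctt
HLA-DRB1: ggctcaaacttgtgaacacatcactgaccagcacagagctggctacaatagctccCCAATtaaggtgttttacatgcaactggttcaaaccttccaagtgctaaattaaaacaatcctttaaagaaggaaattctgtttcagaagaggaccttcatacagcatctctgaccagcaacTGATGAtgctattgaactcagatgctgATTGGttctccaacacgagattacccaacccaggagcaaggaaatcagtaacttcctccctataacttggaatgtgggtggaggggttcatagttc
HLA-DMA: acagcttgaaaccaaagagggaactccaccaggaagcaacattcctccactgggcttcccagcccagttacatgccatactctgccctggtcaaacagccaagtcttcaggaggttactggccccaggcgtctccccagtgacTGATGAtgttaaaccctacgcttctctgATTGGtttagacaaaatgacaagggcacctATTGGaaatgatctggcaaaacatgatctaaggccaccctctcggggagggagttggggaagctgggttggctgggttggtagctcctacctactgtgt
These promoters hold few CpG sites, the bases at which DNA methylation is set. The CD74 promoter had 3 CpG sites, the HLA-DRB1 promoter had 1 and the HLA-DMA promoter had 3, where the median over all promoters was 14. Apart from the first of a pair of HLA-DPA1 promoters, which had 27, no promoter of these genes had more than 7.

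Values are FPKM (fragments normalized to transcript length and library size). Summed FPKM lay between 577735 and 592051 in the 5aza libraries and between 601916 and 628399 in the control libraries. Genes listed at 0 numbered 801, 755 and 783 in the 5aza libraries, against 1761, 1724 and 1663 in the control libraries. The part of this difference in the rises of low genes was not tested. The sources used here give no read totals, and low values did not fall on whole reads, so the depth behind a low value is unknown. Epithelial identity was seen in every library: EPCAM averaged 153 FPKM in 5aza and 166 FPKM in control libraries, and KRT8 averaged 1151 FPKM in 5aza and 984 FPKM in control libraries. The epithelial marker VIL1 was at 0.191 FPKM or less in every library. CDH1, KRT19 and KRT18 rose by 0.35, 0.34 and 0.26 on the log2 scale, while EPCAM fell by 0.12, a call lost under 6 of 15 alternatives. In such bulk libraries, more cells with a transcript and more transcript per cell cannot be told apart.

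Tests were run with limma on log2(FPKM + 0.1) over the 12360 genes that reached 0.5 FPKM in 3 or more libraries, and the words rose and fell are used where the Benjamini-Hochberg adjusted p was under 0.05. Of the 8 members with values, 6 passed this filter and 2, CIITA and HLA-DQB1, did not. Of the 6 tested, CD74 and HLA-DRB1 rose, 0 fell and 4 did not pass (at an unadjusted p under 0.05, HLA-DMA would join the rises). Over all genes tested, 10.6% rose and 13.1% fell. CD74 was under 0.5 FPKM in all control libraries and could enter the test only through its 5aza libraries. HLA-DPA1 reached 0.5 FPKM in 1 control library and HLA-DPB1 in 2, so these too passed the filter only with 5aza libraries. The count and the members' median log2 fold change of 0.39 (all genes tested, -0.008) are therefore descriptions only. That median was 0.15 under quantile normalization and 0.23 with 1 FPKM added in place of 0.1.

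CD74 changed most among the members. CD74 (ENSG00000019582, GRCh38 chromosome 5, 150401637 to 150412929, minus strand) was at 1.44, 1.61 and 2.23 FPKM in the 5aza libraries, against 0.0905, 0.245 and 0.137 FPKM in the control libraries. The groups did not overlap, and the lowest 5aza library was several times above the highest control library. The means were 1.76 ± 0.414 FPKM in 5aza and 0.158 ± 0.0793 FPKM in control cells (SD, n = 3 each), a ratio of means of 11.1. The log2 fold change was 2.87 (SE 0.28, 95% interval 2.22 to 3.53, limma adjusted p = 5.86e-04), the rank of 94 among the 12360 genes tested. CD74 entered this test only through its 5aza libraries. In a fit over 16627 genes with no filter the value was again 2.87 (limma adjusted p = 9.99e-04). With so low a control level the size depends on the pseudocount: the log2 fold change was 1.24 with 1 FPKM added and 3.48 with 0.01 FPKM added. The call held under all 15 alternatives, with log2 fold changes of 2.68 to 3.10 when any 1 library was left out. Under quantile normalization it was 2.19 (limma adjusted p = 0.00129), just below the 95% interval above.

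CIITA, the transactivator on which class II transcription depends, stayed near 0 in both groups. CIITA (ENSG00000179583, chromosome 16, 10866222 to 10943021, plus strand) was at 0.0725, 0.135 and 0.0976 FPKM in the 5aza libraries, against 0.0872, 0.0675 and 0.0665 FPKM in the control libraries. The groups overlapped, and no library reached the 0.5 FPKM of the filter. In the fit over 16627 genes with no filter, its log2 fold change was 0.20 (95% interval -0.19 to 0.60, limma adjusted p = 0.445), beside a share of 10.7% of genes that rose in that fit. Its values lie near the 0.1 FPKM added, which draws the change and its interval toward 0. The ratio of means, with nothing added, was 1.38. A gene-level value does not separate the several promoters from which CIITA is known to be transcribed. DEXI (10928891 to 10942460, minus strand) lies inside the annotated CIITA gene and averaged 32.8 FPKM in 5aza and 33.4 FPKM in control cells. Its reads could be counted for CIITA if libraries were not stranded, which the sources used here do not say.

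The plot of the members' values by library sets CD74 beside the class II chains described next.

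**Figure D1:**
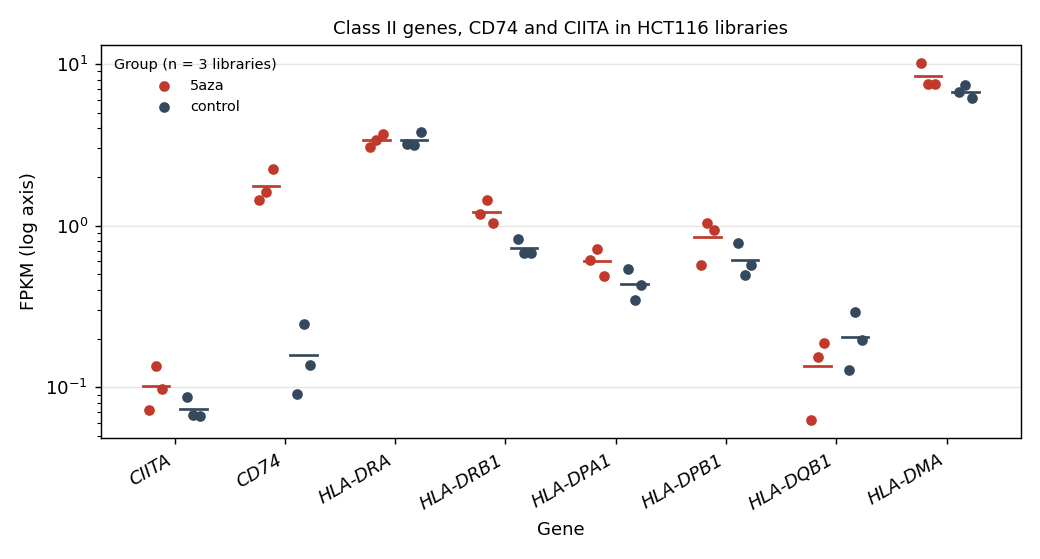
FPKM on a log axis of the 8 members with values, with 3 points for the 5aza libraries left of 3 points for the control libraries and a line at each group's mean. CD74 lies between 1.44 and 2.23 FPKM in 5aza and between 0.0905 and 0.245 FPKM in control libraries, while HLA-DRA averages 3.38 FPKM in both.

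HLA-DRA encodes the DR alpha chain, which pairs with every DR beta chain. HLA-DRA (ENSG00000204287, chromosome 6, 32439842 to 32445046, plus strand) was at 3.04, 3.38 and 3.70 FPKM in the 5aza libraries, against 3.18, 3.14 and 3.81 FPKM in the control libraries. Its means were 3.38 ± 0.330 FPKM in 5aza and 3.38 ± 0.374 FPKM in control cells (SD, n = 3 each). The groups overlapped throughout, with a log2 fold change of 0.00 and a 95% interval of -0.26 to 0.26 (limma adjusted p = 1).

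HLA-DRB1, a DR beta chain and the most polymorphic of these genes, rose by a smaller amount. HLA-DRB1 (ENSG00000196126, chromosome 6, 32578769 to 32589848, minus strand) was at 1.18, 1.43 and 1.03 FPKM in the 5aza libraries, against 0.829, 0.677 and 0.677 FPKM in the control libraries. The groups did not overlap, and all 6 libraries passed 0.5 FPKM. The log2 fold change was 0.66 (SE 0.18, 95% interval 0.25 to 1.07, limma adjusted p = 0.033). The call was lost without 5aza replicate 1 (adjusted p = 0.0759), 5aza replicate 2 (0.0983), control replicate 2 (0.0941) or control replicate 3 (0.0783), and under quantile normalization (0.174). DR beta genes are near-identical copies whose number differs between haplotypes, so reads may have been split between them and its level is uncertain.

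The DP chains, which form a further class II pair, were low in both groups. HLA-DPA1 (ENSG00000231389, chromosome 6, 33064569 to 33080775, minus strand) was at 0.609, 0.712 and 0.486 FPKM in the 5aza libraries, against 0.537, 0.345 and 0.431 FPKM in the control libraries. HLA-DPB1 (ENSG00000223865, chromosome 6, 33075926 to 33087201, plus strand) was at 0.567, 1.04 and 0.934 FPKM in the 5aza libraries, against 0.777, 0.492 and 0.571 FPKM in the control libraries. For both genes the groups overlapped and the log2 fold change was 0.39, with 95% intervals of -0.16 to 0.93 for HLA-DPA1 and -0.22 to 1.00 for HLA-DPB1. Under quantile normalization these values were -0.29 for HLA-DPA1 and 0.04 for HLA-DPB1. The annotated genes overlap by 4850 bases on opposite strands, and the sources used here do not say whether libraries were stranded, so reads of 1 gene could be counted for the other.

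HLA-DQB1, the DQ beta chain, was under the filter. HLA-DQB1 (ENSG00000179344, chromosome 6, 32659467 to 32668383, minus strand) was at 0.0622, 0.153 and 0.188 FPKM in the 5aza libraries, against 0.127, 0.291 and 0.196 FPKM in the control libraries. The groups overlapped, and in the fit with no filter the log2 fold change was -0.38 (95% interval -1.08 to 0.31, limma adjusted p = 0.41). Its values too lie near the 0.1 FPKM added, and its ratio of means was 0.657. Of 10 further class II loci in a list of them, 2 had values, and neither passed the filter. HLA-DOA, the alpha chain of the HLA-DM inhibitor HLA-DO, was at 0.413, 0.533 and 0.675 FPKM in the 5aza libraries, against 0.226, 0.323 and 0.349 FPKM in the control libraries. Its groups did not overlap, and with no filter the log2 fold change was 0.67 (95% interval 0.15 to 1.20, limma adjusted p = 0.0775). HLA-DQB2, a DQ beta gene of unclear product, averaged 0.201 FPKM in 5aza and 0.210 FPKM in control cells.

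HLA-DMA, the alpha chain of the peptide-exchange protein HLA-DM, was the most abundant member in both groups. HLA-DMA (ENSG00000204257, chromosome 6, 32948613 to 32969094, minus strand) was at 10.2, 7.54 and 7.49 FPKM in the 5aza libraries, against 6.70, 7.36 and 6.18 FPKM in the control libraries. The lowest 5aza library lay just above the highest control library. Groups without overlap, by any margin and with 5aza higher, were seen in 3 of the 6 members tested, CD74 among them, and in 19.6% of all genes tested. The log2 fold change was 0.30 (SE 0.13, limma adjusted p = 0.13), and without 5aza replicate 1, the highest library, it was 0.16. The annotated gene overlaps BRD2 (32968660 to 32981505, plus strand), which averaged 90.6 FPKM in 5aza and 91.7 FPKM in control cells. Whether libraries were stranded is not stated, so reads of BRD2 could be counted for HLA-DMA and its level is uncertain.

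Set per length, the order of levels in 5aza cells was HLA-DMA, HLA-DRA, CD74, HLA-DRB1, HLA-DPB1, HLA-DPA1, HLA-DQB1 and CIITA. Libraries of neighbours in this order overlapped for HLA-DRB1 and HLA-DPB1, for HLA-DPB1 and HLA-DPA1, and for HLA-DQB1 and CIITA. In control cells CD74 stood second to last, its libraries overlapping those of HLA-DQB1, with CIITA below it. The order of the other members was the same in both groups. CD74 was at 0.472, 0.477 and 0.601 of the HLA-DRA level in the 5aza libraries, against 0.0284, 0.0781 and 0.0361 in the control libraries. The log2 difference between CD74 and each of the other 7 members was higher in 5aza than in control libraries, without overlap, by 2.21 (HLA-DRB1) to 3.26 (HLA-DQB1). The two-sided exact permutation p was 0.10 for each of the 7 comparisons, before and after adjustment, which is the smallest that 3 libraries against 3 allow. CD74 is the member that changed most in these same libraries, and the 7 comparisons share its values, so they are descriptions only.

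The factors that bind class II promoters were expressed in both groups. The list of them also holds NLRC5, which acts on class I genes. All 8 genes of the list were tested, with 1 rise, 0 falls and 7 that did not pass, where 10.6% of all genes tested rose and 13.1% fell. The median log2 fold change was -0.08 for the list and -0.008 over all genes tested. RFX5, the DNA-binding subunit of the RFX complex, was at 22.7, 23.7 and 20.6 FPKM in the 5aza libraries, against 17.7, 19.2 and 18.6 FPKM in the control libraries. The groups did not overlap, and the log2 fold change was 0.27 (SE 0.061, limma adjusted p = 0.0187). This call was lost without 5aza replicate 1 (adjusted p = 0.0583), 5aza replicate 2 (0.0580) or control replicate 1 (0.0608). Its partners RFXAP (2.70 FPKM in 5aza and 3.12 FPKM in control cells) and RFXANK (32.2 FPKM in 5aza and 34.4 FPKM in control cells) did not pass the test. Nor did NFYA, NFYB and NFYC, the NF-Y subunits that bind the CCAAT letters, or CREB1 (log2 fold change -0.07). The smallest adjusted p among these was that of NFYC (log2 fold change -0.15, adjusted p = 0.0591). NLRC5, the relative of CIITA that acts on class I genes, was at 1.45, 8.92 and 1.36 FPKM in the 5aza libraries, against 1.35, 1.43 and 1.76 FPKM in the control libraries. Only 5aza replicate 2 was high, and without it the log2 fold change of NLRC5 was -0.09 in place of 0.77.

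**Figure D2:**
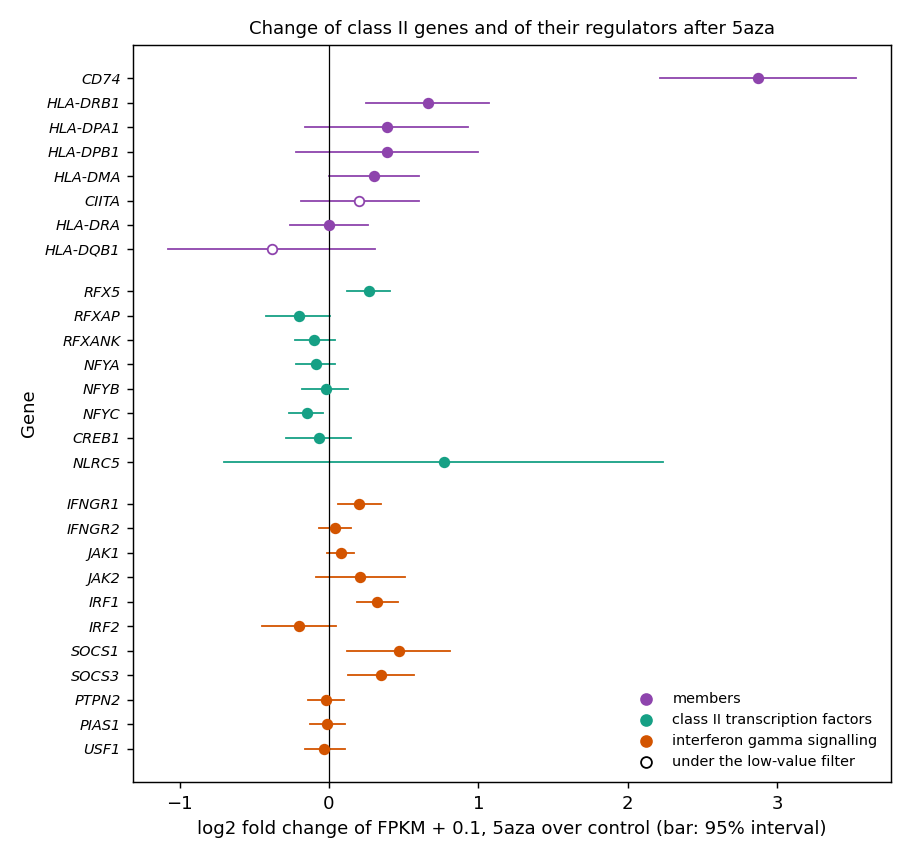
Log2 fold change of FPKM + 0.1, 5aza over control, with its 95% interval, for the members, the class II transcription factors and the interferon gamma signalling genes tested; open circles are from the fit with no filter. CD74 stands at 2.87, while RFX5 is at 0.27 and IRF1 at 0.32.

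Among 11 genes of interferon gamma signalling, all tested, there were 3 rises and 0 falls, 8 genes did not pass, and the median log2 fold change was 0.08. Over all genes tested, 10.6% rose and 13.1% fell. IRF1, a transcription factor that binds the CIITA promoter, was at 13.5, 13.9 and 15.2 FPKM in the 5aza libraries, against 11.6, 11.3 and 11.0 FPKM in the control libraries. Every 5aza library was above every control library. The log2 fold change was 0.32 (limma adjusted p = 0.00761), and the call held under all 15 alternatives. SOCS3, a feedback inhibitor of cytokine receptors, rose by 0.35 on the log2 scale (adjusted p = 0.0344), and IFNGR1, the ligand-binding receptor chain, by 0.20 (adjusted p = 0.0494). The IFNGR1 call was lost under 11 of 15 alternatives. The SOCS3 call was lost under 5, namely with no variance trend and without control replicate 1 or 2 or 5aza replicate 1 or 3, where adjusted p lay between 0.0741 and 0.1. The remaining receptor chain and the kinases did not pass: IFNGR2 averaged 31.7 FPKM in 5aza and 30.9 FPKM in control cells, and the log2 fold changes were 0.08 for JAK1 and 0.21 for JAK2.

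Of 16 genes of the endosomal steps, 14 were tested, with 2 rises and 0 falls, and a median log2 fold change of -0.02. The share of all genes tested was 10.6% for rises and 13.1% for falls. CTSS and MARCHF1 were under the filter. LGMN, an asparaginyl endopeptidase, was at 33.4, 32.4 and 31.9 FPKM in the 5aza libraries, against 25.4, 27.2 and 27.5 FPKM in the control libraries (log2 fold change 0.29, limma adjusted p = 0.00384). CTSB, cathepsin B, averaged 141 ± 0.711 FPKM in 5aza and 121 ± 5.35 FPKM in control cells (SD, n = 3 each; log2 fold change 0.22, limma adjusted p = 0.00492). IFI30, the thiol reductase that unfolds antigens, averaged 107 FPKM in 5aza and 113 FPKM in control cells and did not pass the test. CTSS, cathepsin S, the protease that makes the last cuts in CD74 in antigen-presenting cells, was between 0.0451 and 0.0826 FPKM in the 5aza libraries and between 0.0397 and 0.122 FPKM in the control libraries. MARCHF1, a ubiquitin ligase that sends class II molecules to degradation, averaged 0.431 FPKM in 5aza and 0.579 FPKM in control cells.

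Along chromosome 6 the class II members span 647 kb, and other genes lie among them. With the genes whose lower coordinate lies within 200 kb of CD74 or of CIITA, 17 neighbours had values. These include HLA-DOA and HLA-DQB2, class II loci outside the members. Of the neighbours, 12 were tested, with 3 rises and 2 falls, and a median log2 fold change of 0.06 (all genes tested: 10.6% rose, 13.1% fell). In the class II region, TAP1, a subunit of the peptide transporter for class I, averaged 27.0 FPKM in 5aza and 21.0 FPKM in control cells (log2 fold change 0.36, limma adjusted p = 6.87e-04). PSMB8, an immunoproteasome subunit, was at 1.13, 0.652 and 1.08 FPKM in the 5aza libraries, against 0.454, 0.259 and 0.550 FPKM in the control libraries. Its groups did not overlap (log2 fold change 1.02, limma adjusted p = 0.0432), and the call was lost under 7 of the 14 alternatives in which it was tested, among them without 5aza replicate 1 (adjusted p = 0.122) or 3 (0.128) or control replicate 1 (0.0789) or 2 (0.109). PSMB8 reached 0.5 FPKM in only 1 control library, so it passed the filter only with its 5aza libraries. TAP2, PSMB9 and BRD2, a bromodomain protein gene, did not pass. The annotated TAP1 and PSMB8 genes overlap PSMB9 on the opposite strand, so reads could be counted for the wrong gene.

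**Figure D3:**
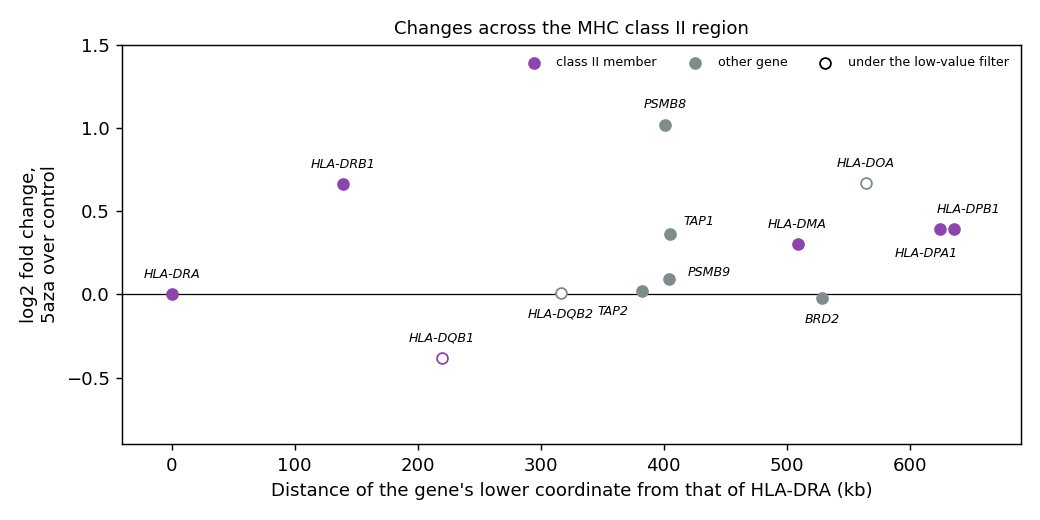
Log2 fold change (5aza over control) of genes against the distance in kb of each gene's lower coordinate from that of HLA-DRA, with class II members in purple, other genes in grey and genes under the low-value filter as open circles. HLA-DRA and BRD2 lie near 0, HLA-DRB1 at 0.66 and PSMB8 at 1.02. The other genes include HLA-DOA and HLA-DQB2, class II loci outside the members.

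Near CD74 on chromosome 5, 2 neighbours fell and 1 rose. RPS14, a ribosomal protein gene, fell to 1122 FPKM in 5aza, against 1317 FPKM in control cells (log2 fold change -0.23, limma adjusted p = 0.0037). TCOF1, a factor of ribosomal RNA transcription, fell to 27.1 FPKM in 5aza, against 33.2 FPKM in control cells (log2 fold change -0.29, limma adjusted p = 0.00156). SYNPO, an actin-associated protein gene, rose to 6.28 FPKM in 5aza, against 4.56 FPKM in control cells (log2 fold change 0.45, limma adjusted p = 0.00279). NDST1 near CD74, and NUBP1, DEXI and CLEC16A near CIITA, did not pass.

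By Pearson's r of log2(FPKM + 0.1) over the 6 libraries, the annotated genes most like CD74 were ATOX1 (r = 0.998), NFKB2 (0.997), KCTD11 (0.997), ITGA3 (0.996) and TMEM120B (0.995). These 6 points share the split into 5aza and control, so the coefficients describe likeness of pattern and not of size. ATOX1, a copper chaperone, averaged 141 FPKM in 5aza and 110 FPKM in control cells, and NFKB2, an NF-kappaB subunit, 64.2 FPKM in 5aza and 44.6 FPKM in control cells.

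Costimulatory genes, whose products T cells need beside the peptide, were examined beside the class II genes. Of 6 in the list, 4 were tested, 2 rose (10.6% of all genes tested did) and 2 did not pass, with a median log2 fold change of 0.09. ICAM1, an adhesion molecule of the T cell contact, was at 5.94, 6.76 and 5.82 FPKM in the 5aza libraries, against 2.11, 2.61 and 2.38 FPKM in the control libraries (log2 fold change 1.35, limma adjusted p = 2.33e-04). CD58, the ligand of CD2, rose by 0.21 on the log2 scale (adjusted p = 0.0382), a call lost with no variance trend (adjusted p = 0.0529) and without any 1 of 5 libraries (adjusted p between 0.0592 and 0.110). CD80 and CD86, the ligands of CD28, were at 0.125 FPKM or less in every library.

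Markers of blood lineages, in which CD74 and class II chains are abundant, were examined in the same libraries. Of 13 markers, 11 had values, 3 were tested, 2 rose (10.6% of all genes tested did) and 1 did not pass. That one was ITGAX, the integrin CD11c of myeloid cells, which averaged 0.715 FPKM in 5aza and 0.317 FPKM in control cells without overlap (log2 fold change 1.02, limma adjusted p = 0.0735) and entered the test only through its 5aza libraries. Without control replicate 3 its adjusted p was 0.0392. The summed level of the 11 was 9.85 to 10.3 FPKM in the 5aza libraries and 4.58 to 5.51 FPKM in the control libraries, most of it from CD68 and CD79B. CD79B, a B cell receptor subunit, was at 2.84, 2.51 and 3.33 FPKM in the 5aza libraries, against 0.421, 0.992 and 0.470 FPKM in the control libraries (log2 fold change 2.11, limma adjusted p = 0.0022). CD79B reached 0.5 FPKM in only 1 control library, so it too passed the filter only with its 5aza libraries. The count of rises among these markers is therefore a description only. CD68, a lysosomal protein of macrophages, averaged 5.23 FPKM in 5aza and 3.50 FPKM in control cells (limma adjusted p = 0.0144), a call lost without 5aza replicate 2 (0.0507). With no filter, CSF1R, PAX5 and LYZ were called as well, with log2 fold changes of 1.34, 0.87 and 0.93, beside a share of 10.7% of genes that rose in that fit. PTPRC, the pan-leukocyte CD45, was at 0.0508, 0.108 and 0.0358 FPKM in the 5aza libraries, against 0.00612, 0 and 0.0178 FPKM in the control libraries, low throughout but without overlap. The B cell marker CD79A, the partner of CD79B, averaged 0.0788 FPKM in 5aza and 0.0879 FPKM in control cells, and the myeloid factor SPI1 was at 0.0608 FPKM or less in every library. The part of these markers in the CD74 result was not tested.

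**Figure D4:**
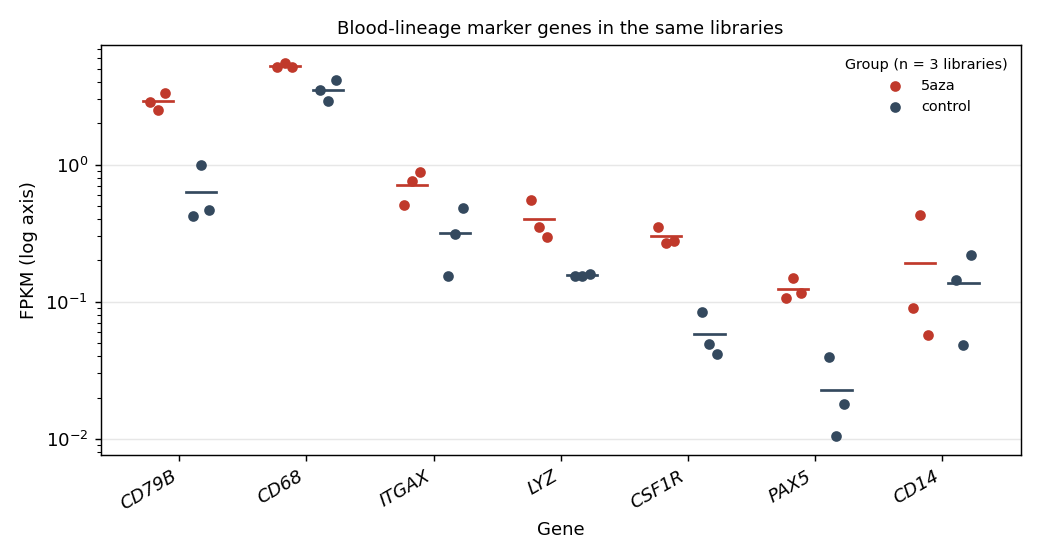
FPKM on a log axis of the 7 blood-lineage markers above 0 in every library, with 3 points for the 5aza libraries left of 3 points for the control libraries and a line at each group's mean. CD79B averages 2.89 FPKM in 5aza and 0.628 FPKM in control libraries, while CD14 averages 0.191 FPKM in 5aza and 0.137 FPKM in control libraries.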

How the data were processed

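The authors deposited 1 table of FPKM values per gene for all 6 libraries, a unit taken from the name of the table and not contradicted by its values; its columns were matched to samples through the sample descriptions, which carry DAC where the titles have 5aza. Per the submitters' processing notes, STAR (2.5.1b), HTSeq (0.6.0), DESeq2 (1.10.1), the human build GRCh38 and the rat build Rnor_6.0 are named, none of them with a role. The sources used here name no program for the FPKM, and say nothing of strandedness or of how RNA was selected. Of 16726 rows, 11 repeated an identifier, and of these the row of higher mean was used.

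Fits used log2(FPKM + 0.1) without scaling between libraries; the added 0.1 makes changes of low genes look smaller. Genes that reached 0.5 FPKM in 3 or more libraries were fitted with limma 3.58.1 in R 4.3.3 (variance trend, two-sided, Benjamini-Hochberg over all 12360 genes), a procedure tested on simulated data. Low values of 1292 genes with a single transcript lay within 0.1 of whole reads for 30.5% to 37.3% at the best setting, so whole reads were not recovered and no count test was run. Symbols and coordinates are from GENCODE release 29 and the gene name table (15440 identifiers matched), promoters from RefSeq.

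The members and lists were chosen with earlier results of these data known. Some genes of the lists are not reported here, and counts leave them out. Named genes were all members, up to 3 rises and 3 falls of each list, set regulators, every neighbour past the threshold and the 5 genes most like CD74. Alternatives were other pseudocounts, filters and scalings, no variance trend, a replicate block and leaving out each library, for which the set of genes tested was kept.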

Additional observations from a re-analysis of the deposited data

How the results depend on the processing

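The call of CD74 held under all 15 alternatives. Its log2 fold change lay between 2.68 and 3.10 with 1 library left out and was 2.19 under quantile normalization. The outcomes of the other members tested stayed the same in 67 of 73 values, which include those of members that never passed. The 6 lost were all of HLA-DRB1, the only call among them, which held under 9 of 15 alternatives. No called gene changed direction. Quantile normalization gave 1 called member, 2 class II transcription factors (RFX5, and RFXAP as a fall) and 4 endosomal genes. Centring on the median gave 2 transcription factors (RFX5, and NFYC as a fall) and 4 endosomal genes. With no variance trend, 1 interferon gamma gene and 1 costimulatory gene were called, and with no filter 5 blood-lineage markers. With 1 library left out, called members numbered 1 to 2, transcription factors 0 to 1, interferon gamma genes 1 to 4, costimulatory genes 1 to 2, blood-lineage markers 1 to 3 and all genes 1877 (without 5aza replicate 3) to 2599. The cause of these moves was not tested. The libraries share only replicate numbers: deviations from the group means correlated at r = 0.048, 0.077 and 0.068 for the numbers 1 to 3. A replicate block gave 1 called member and 1 called costimulatory gene, with an adjusted p of 0.0523 for HLA-DRB1. Depth is unknown, and values under 0.5 FPKM carry the least precision.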
